A study of Homo sapiens with 13 samples.

Results

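The cytosolic ribosomal protein genes were taken from the GENCODE version 44 annotation as the protein-coding genes whose symbol is RPL or RPS followed by a number (with or without A, L, AL or X), RPLP0 to RPLP2, or RPSA. The rule found 82 of 20033 protein-coding genes, 32 for the small (40S) and 50 for the large (60S) ribosomal subunit, and it used no measured value. The measurements came from MOLM-13, a cell line established from a patient with acute myeloid leukemia, in 13 libraries that shared this line and differed in antibody and assay. CUT&Tag uses an antibody to bring a transposase to the protein of interest, where it cuts the DNA and adds sequencing adapters, and it gave 2 libraries each for PTBP1 and RUNX1 and 1 for the IgG control. CUT&RUN releases the DNA with an antibody-directed nuclease and gave 2 libraries each for PTBP1, RUNX1, the histone mark H3K27me3 and IgG. The values below come from 1 deposited peak list per target on the hg38 build, PTBP1 with 9370 peaks and RUNX1 with 7688, taken as CUT&Tag lists from the study's methods. The lists carry no replicate values, so the spread between replicates is unknown and no group test was made.

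Ribosomal proteins assemble with ribosomal RNA into the subunits that decode mRNA and join amino acids. Their genes are transcribed at high levels in dividing cells from promoters that are often GC-rich, and their transcripts typically begin with a run of C and U, the 5-prime terminal oligopyrimidine tract, through which growth signals control their translation. PTBP1 recognizes pyrimidine tracts in RNA and regulates splicing, and RUNX1 is a DNA-binding factor needed for blood formation.

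A gene was counted as holding a peak at its transcription start site (TSS, the 5-prime end of the annotated gene) when a called peak came within 1 kb of it. The fold enrichment is the ratio of the fragments piled up at the peak's summit to the background, with 1 added to each. The usual background was 0.720 fragments for PTBP1 and 0.330 for RUNX1, and the lowest summits of these lists held 11 and 8 fragments. Neither the fold enrichments nor the fragments of the lists are therefore on the same footing. Where the targets are set side by side at a gene, both measures are given, and a gene without a peak is one whose signal did not reach the calling threshold, not one shown to be unbound. Intervals are exact 95% binomial intervals and cover counting error only.

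Of the 82 ribosomal protein genes, 49 held a PTBP1 peak at the TSS (59.8%, interval 48.3 to 70.4), beside 26.4% of all protein-coding genes. A RUNX1 peak was held by 31 (37.8%, interval 27.3 to 49.2), beside 21.3%. Both intervals lie above the share of all genes. With the stricter rule that the peak holds the TSS base itself, that remained so for PTBP1 (36 members, 43.9%, interval 33.0 to 55.3, beside 19.9%) but not for RUNX1 (18 members, 22.0%, interval 13.6 to 32.5, beside 15.5%). Of the 82, 26 held both peaks (31.7%, interval 21.9 to 42.9), beside 17.3% of all genes, and under the stricter rule 14 did (17.1%, interval 9.66 to 26.98), beside 11.9%. PTBP1 alone was called at 23 (28.0%, interval 18.7 to 39.1), beside 9.05%, and RUNX1 alone at 5 (6.10%, interval 2.01 to 13.7), beside 3.98%. Neither was called at 28 (34.1%, interval 24.0 to 45.4), beside 69.7%. Among the ribosomal protein genes with a PTBP1 peak, 53.1% also held a RUNX1 peak, compared with 65.7% of all genes with a PTBP1 peak. Read from RUNX1, 83.9% of ribosomal protein genes with its peak also held PTBP1, compared with 81.3% of all such genes.

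**Figure D1:**
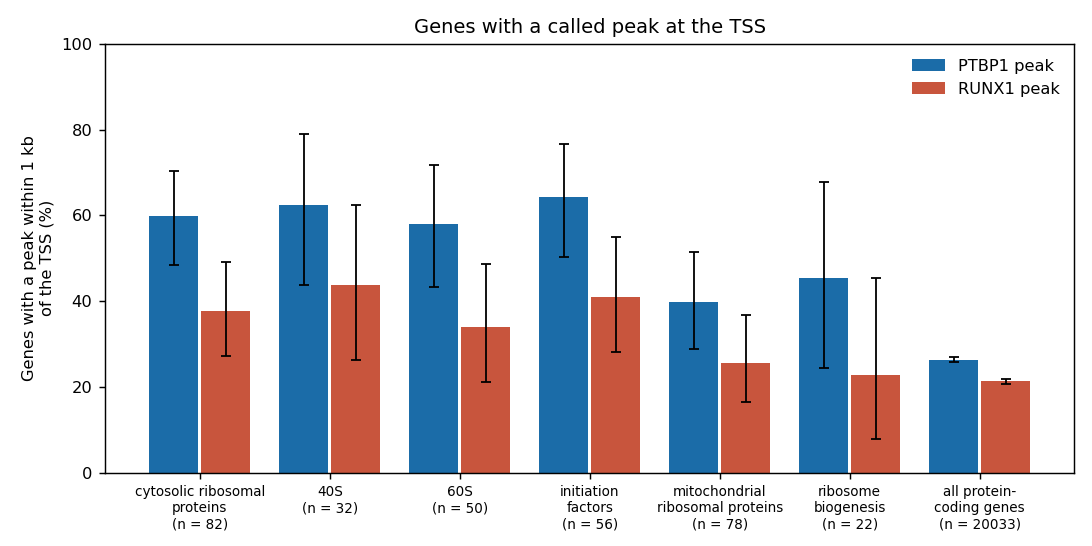
Bars give the percent of genes with a called PTBP1 (blue) or RUNX1 (red) peak within 1 kb of the TSS, for the ribosomal protein genes, their subunits, related gene lists and all protein-coding genes, and error bars are exact 95% binomial intervals. The ribosomal protein genes stand at 59.8% and 37.8%, the initiation factors at 64.3% and 41.1%, and all genes at 26.4% and 21.3%.

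The heights of the peaks were close to those of other genes. The median fold enrichment of the 49 PTBP1 peaks was 15.7 (95% interval of the median 11.6 to 20.9, range 6.98 to 70.9), and over all genes with a PTBP1 peak at the TSS it was also 15.7. For the 31 RUNX1 peaks it was 16.5 (interval 11.3 to 21.1, range 5.76 to 42.1), and over all genes 15.8. In fragments the medians were 26 for PTBP1 and 22 for RUNX1, beside 28 and 21 over all genes. The 90th percentile of all PTBP1 values (41.3) was passed by 4 of the 49 (8.16%, interval 2.27 to 19.6), and that of RUNX1 (38.5) by 2 of the 31 (6.45%, interval 0.791 to 21.4), both intervals holding the 10% of all genes that pass by construction. Where a gene had several peaks, the one of highest fold enrichment stood for it.

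To show what the starts of these genes look like, 30 bases centred on the start of the canonical transcript are given below. RPS19, RPL28 and RPL18 are among the 5 genes of highest PTBP1 fold enrichment. For contrast, 4 genes follow that come first by symbol among those without any peak, at the TSS or in the gene body. Each reads 5′ to 3′ on the gene's strand, and capitals mark a pyrimidine run, defined as at least 5 C or T in a row beginning within 5 bases of the start.
RPS19 (hg38 chr19:41860240-41860269, plus strand): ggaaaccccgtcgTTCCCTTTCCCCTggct
RPL28 (hg38 chr19:55385917-55385946, plus strand): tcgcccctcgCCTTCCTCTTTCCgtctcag
RPL18 (hg38 chr19:48619164-48619193, minus strand): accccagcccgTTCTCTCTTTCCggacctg
RPL10L (hg38 chr14:46651767-46651796, minus strand): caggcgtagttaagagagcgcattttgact
RPL11 (hg38 chr1:23691791-23691820, plus strand): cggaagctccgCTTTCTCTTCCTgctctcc
RPL13 (hg38 chr16:89560667-89560696, plus strand): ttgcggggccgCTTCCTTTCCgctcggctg
RPL14 (hg38 chr3:40457324-40457353, plus strand): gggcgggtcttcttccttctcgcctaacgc
The run stands at 4 of those 5 genes of highest PTBP1 fold enrichment, so the 3 shown, which all carry it, are not the whole of that group. Of the 4 genes without a peak, RPL11 and RPL13 carry it. RPL10, which comes before them by symbol and has neither peak at the TSS, carries it too. It is not shown here and has a PTBP1 peak in the gene body. In RPL14 a pyrimidine stretch is present but begins farther from the annotated start than the rule allows, and RPL10L has none.

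The run was found at 55 of 82 ribosomal protein genes (67.1%, interval 55.8 to 77.1), beside 24.3% of all genes. With at least 8 pyrimidines in a row it was found at 49, beside 6.07% of all genes, and with a start allowed within 10 bases at 74, beside 39.5%. Of the 55 ribosomal protein genes with a run, 36 held a PTBP1 peak (65.5%, interval 51.4 to 77.8) and 24 a RUNX1 peak (43.6%, interval 30.3 to 57.7). Of the 27 without, 13 held PTBP1 (48.1%, interval 28.7 to 68.1) and 7 held RUNX1 (25.9%, interval 11.1 to 46.3). The intervals with and without a run overlap for both targets. The run was sought at the canonical start, whereas the peaks were called at the gene TSS. RPL10, RPL22 and RPL36 carry a run and held a PTBP1 peak at the canonical start only, RPL22 a RUNX1 peak there too. They count here as genes with neither peak. RPL6 carries a run and counts through a PTBP1 summit at -9221 from the canonical start. By class, the run stood at 22 of 26 genes with both peaks (84.6%, interval 65.1 to 95.6), 14 of 23 with PTBP1 alone (60.9%), 2 of 5 with RUNX1 alone and 17 of 28 with neither (60.7%, interval 40.6 to 78.5), beside 23.4%, 23.2%, 22.3% and 24.8% of all genes of these classes. Across all genes the PTBP1 share was 25.3% with a run and 26.7% without, and the RUNX1 share 20.3% and 21.6%.

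Among the 40S genes, 20 of 32 held PTBP1 (62.5%, interval 43.7 to 78.9) and 14 held RUNX1 (43.8%, interval 26.4 to 62.3). Both peaks stood at 11, PTBP1 alone at 9, RUNX1 alone at 3 and neither at 9. RPS19, the gene most often altered in Diamond-Blackfan anemia, a congenital failure of red cell production, had the highest PTBP1 value of all 82. Its peak at chr19:41859587-41860453 reached 121 fragments and a fold enrichment of 70.9, above that of 96.2% of all genes with a PTBP1 peak at the TSS. The RUNX1 summit of RPS19 lay 1 base away with 27 fragments and a fold enrichment of 21.1.

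At other 40S genes the RUNX1 fold enrichment was the higher. RPS10, also a Diamond-Blackfan gene, had a RUNX1 fold enrichment of 41.4 (54 fragments) at chr6:34425887-34426549 and a PTBP1 value of 16.9 (28 fragments). RPS6, the 40S protein phosphorylated by S6 kinase, had RUNX1 at 25.6 (33 fragments) and PTBP1 at 15.7 (26 fragments), with both summits on the same base, at -150 from the canonical start. RPS16 (PTBP1 14.5, RUNX1 18.8), RPS18 (22.1 and 23.3) and RPS25 (15.7 and 17.3) gave no order that held in both measures. In fragments RPS16 had 24 for each target, RPS18 had 37 for PTBP1 and 30 for RUNX1, and RPS25 had 26 and 22. RPS9 (27.9 and 21.8), RPS26 (25.0 and 13.5) and RPS12 (21.5 and 17.3) had the higher value for PTBP1, and their fragments (47 and 28, 42 and 17, and 36 and 22) had the same order. RPS13 was low in both, with 8.14 for PTBP1 and 10.5 for RUNX1 and 13 fragments for each.

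The genes with PTBP1 alone included RPS2 (25.6), RPS24 (13.4), RPS14 and RPS28 (11.6 each), RPS15A (11.0), RPS20 (9.30) and RPS27A (8.14). RPS14, the gene whose loss of 1 copy gives the anemia of the 5q- syndrome, therefore held a PTBP1 peak of 19 fragments and no RUNX1 peak. RUNX1 alone was called at RPS3A (16.5), RPS23 (15.8) and RPS27L (6.77). Those with neither included RPS3, RPS4X, RPS7, RPS15, RPS21, RPS27, RPS29 and RPSA. RPS27L rested on 8 fragments, the fewest in the RUNX1 list.

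Among the 60S genes, 29 of 50 held PTBP1 (58.0%, interval 43.2 to 71.8) and 17 held RUNX1 (34.0%, interval 21.2 to 48.8). Both stood at 15, PTBP1 alone at 14, RUNX1 alone at 2 and neither at 19. The intervals of the 40S and 60S genes overlap for both targets. RPL7 had the highest PTBP1 value of the large subunit, 45.3 (77 fragments), beside a RUNX1 value of 29.3 (38 fragments), but both summits were nearer to the canonical start of the neighbouring gene RDH10. RPL28 followed at chr19:55384005-55386332 with a PTBP1 value of 41.9 (71 fragments) and a RUNX1 value of 10.5 (13 fragments). RPL18 had 38.4 for PTBP1 (65 fragments) and 11.3 for RUNX1 (14 fragments), with summits 3 bases apart and nearer to the start of SPHK2 than to its own.

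RPL3, a protein close to the peptidyl transferase center, had the highest RUNX1 value of all 82. Its RUNX1 peak at chr22:39319377-39320360 held 55 fragments with a fold enrichment of 42.1, while the PTBP1 peak held 28 fragments with 16.9. RPL35 had RUNX1 at 29.3 (38 fragments) and PTBP1 at 20.9 (35 fragments), with summits 4 bases apart and nearer to ARPC5L. RPL3, RPL35, RPS6 and RPS10 were thus higher for RUNX1 in both measures, and RPS19, RPL28 and RPL18, among others, for PTBP1. The remaining 60S genes with both peaks, stalk proteins apart, had PTBP1 values from 26.2 down to 11.0. RPL8 had 26.2 for PTBP1 and 14.0 for RUNX1, RPL41 had 25.6 and 12.8, RPL37 had 22.1 and 22.6, and RPL10A had 20.3 and 17.3. RPL26 had 18.0 and 8.27, the third lowest RUNX1 value of the 31, RPL15 had 12.2 and 10.5, and RPL9 had 11.0 and 10.5. PTBP1 had the higher fold enrichment at each of these 7 but RPL37, and in fragments the higher count at each of the 7, RPL37 with 37 against 29 included. At RPL41, however, the summits were 1697 bases apart, and that of PTBP1 was nearest to ZC3H10. The other PTBP1 peak of RPL41, which held the TSS, had 12.2 (20 fragments), beside 12.8 (16 fragments) for RUNX1. There the higher fold enrichment was that of RUNX1 and the higher count that of PTBP1.

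PTBP1 alone was called at RPL27 (36.0), RPL23A (33.1), RPL13A (18.0), RPLP0 (14.0), RPL12 (11.6), RPL5 (11.0), RPL21 and RPL36A (10.5 each), RPL23 and RPL27A (9.88 each), RPL7A (9.30), RPL24 (8.72), RPL32 (8.14) and RPL6 (6.98). The RPL6 peak was the lowest of the 49, with 11 fragments, the fewest in the PTBP1 list, and its summit was at -9221 from the canonical start. RUNX1 alone was called at RPL19 (11.0) and RPL36AL (5.76). Neither was called at RPL3L, RPL4, RPL10, RPL10L, RPL11, RPL13, RPL14, RPL17, RPL22, RPL29, RPL30, RPL31, RPL34, RPL35A, RPL36, RPL37A, RPL38, RPL39 and RPL39L.

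**Figure D2:**
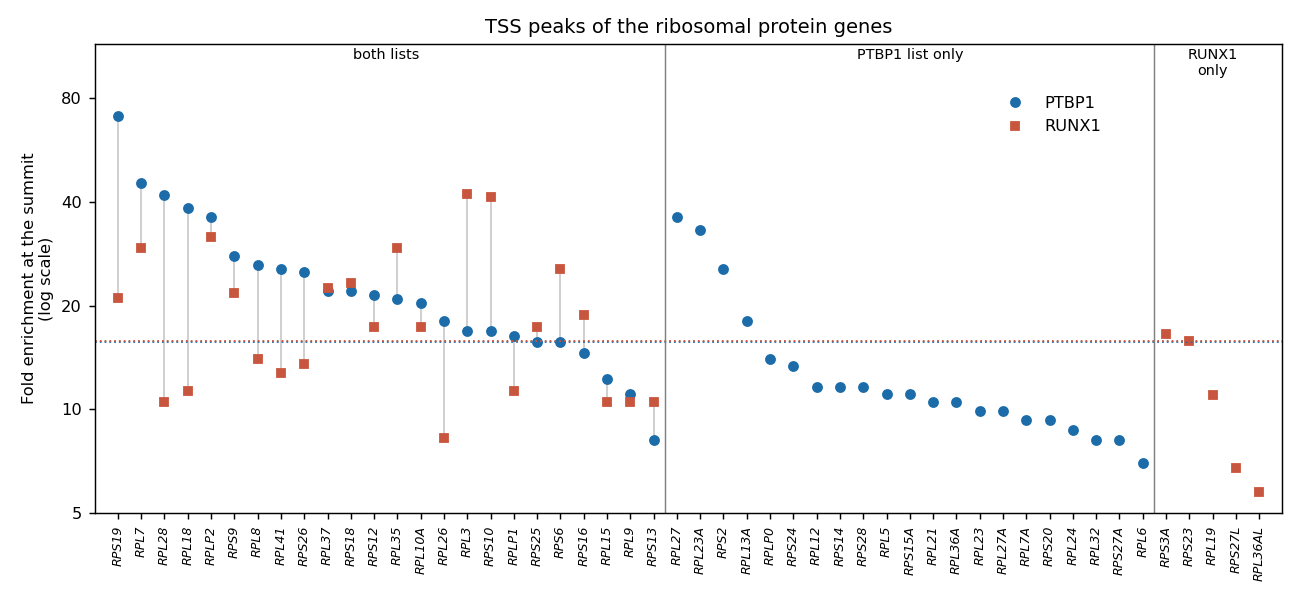
Fold enrichment at the summit (log scale) of the TSS peak of 50 ribosomal protein genes with a peak, PTBP1 as blue circles and RUNX1 as red squares, with genes ordered by PTBP1 value within each class. Dotted lines mark the medians of all protein-coding genes (15.7 and 15.8). Values run from 70.9 at RPS19 to 5.76 at RPL36AL.

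The stalk proteins RPLP0, RPLP1 and RPLP2, which recruit translation factors to the 60S subunit, all held PTBP1. RPLP2 had 36.0 for PTBP1 (61 fragments) and 31.6 for RUNX1 (41 fragments), a ratio of 1.49 in fragments, with summits 29 bases apart. RPLP1 had 16.3 (27 fragments) and 11.3 (14 fragments), and RPLP0 had PTBP1 alone at 14.0. RPL5 and RPL11, which bind 5S ribosomal RNA together and restrain MDM2, differed from each other, with PTBP1 at 11.0 at RPL5 and neither peak at RPL11.

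Of 19 ribosomal protein genes linked to Diamond-Blackfan anemia, 13 held PTBP1 (68.4%, interval 43.4 to 87.4) and 7 held RUNX1 (36.8%, interval 16.3 to 61.6). Over all members the shares were 59.8% and 37.8%, which these intervals hold, and over all protein-coding genes 26.4% and 21.3%. The 7 with RUNX1 all held PTBP1 as well: RPS19, RPS10, RPS26, RPL15, RPL18, RPL26 and RPL35. Among all members with a RUNX1 peak 83.9% did so, and among all such genes 81.3%. PTBP1 alone stood at 6, among them RPL5, RPL27, RPS15A, RPS24 and RPS28, and neither at RPL11, RPL31, RPL35A, RPS7, RPS27 and RPS29. Of the 4 X-linked genes, RPL36A held PTBP1 at 10.5 and RPL10, RPL39 and RPS4X held neither. The 5 paralogs whose symbol ends in L or AL, several of them known for tissue-restricted expression, held no PTBP1 peak (interval to 52.2%), and RUNX1 was called at RPS27L and RPL36AL. These were the 2 lowest RUNX1 fold enrichments of all 31. RPS27L had 8 fragments, but RPL36AL had 83 over a raised background of 13.6, the most fragments of the 31.

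Chromosome 19 carries many of the higher PTBP1 values. Of 12 members there, 10 held PTBP1 (83.3%, interval 51.6 to 97.9) with a median fold enrichment of 24.4, and 7 held RUNX1. The members there included RPS19, RPL28, RPL18, RPS9 and RPS16 with both peaks, and RPL13A and RPS28 with PTBP1 alone. Of those named, RPS16 (14.5) and RPS28 (11.6) lay below the PTBP1 median of 15.7 over all members with a peak. Elsewhere 39 of 70 held PTBP1 (55.7%, interval 43.3 to 67.6) with a median of 14.0, and 24 held RUNX1. All protein-coding genes of chromosome 19 had PTBP1 peaks at 37.3%, with a median fold enrichment of 19.8, and RUNX1 peaks at 24.5%. The part of the chromosome in the members' values was not tested.

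Summits lay mostly just upstream of the canonical start. The PTBP1 summits had a median position of -167 bases (quartiles -238 and -70), compared with -144 over all genes, and 42 of 49 (85.7%, interval 72.8 to 94.1) were upstream, compared with 73.7%. RUNX1 summits had a median of -171 (quartiles -244.5 and -132.5), compared with -133, and 28 of 31 (90.3%, interval 74.2 to 98.0) were upstream, compared with 71.5%. Measured from the gene TSS, the medians were -82 and -138, compared with -18 and 5 over all genes. Median peak widths were 712 bases for PTBP1 and 598 for RUNX1, and 756 and 721 over all genes.

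**Figure D3:**
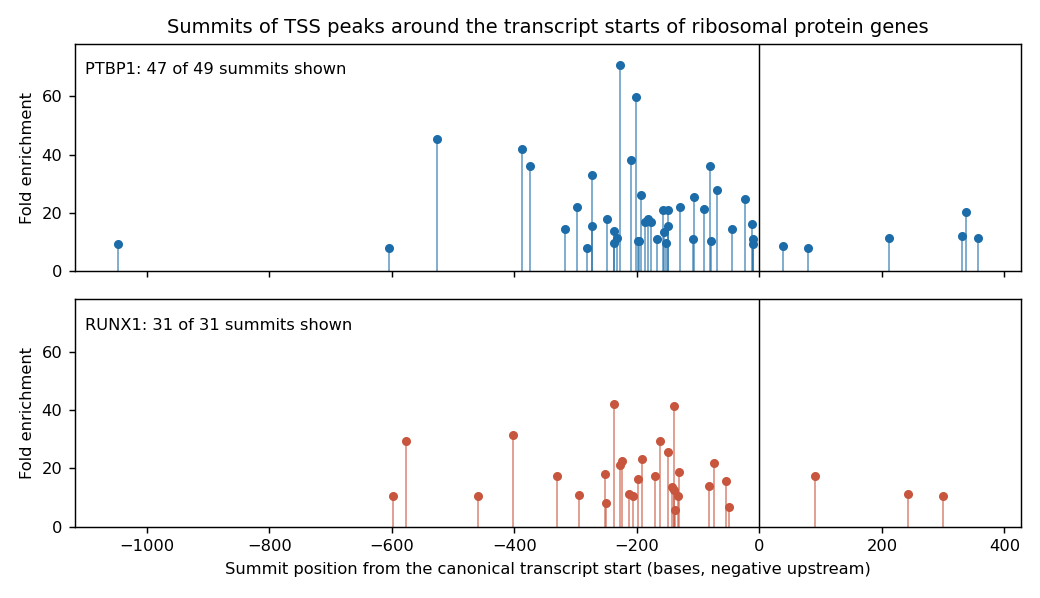
Position of each TSS-peak summit of the ribosomal protein genes from the canonical transcript start (horizontal, bases, negative upstream) against its fold enrichment (vertical), PTBP1 above and RUNX1 below. The PTBP1 summits of RPL6 (-9221) and RPL41 (1557) are outside the plotted range, and 42 of 49 PTBP1 and 28 of 31 RUNX1 summits lie upstream of 0.

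The 1 kb limit decided few of these calls. The PTBP1 peak of RPL41 came within 861 bases of the TSS and its RUNX1 counterpart on the same summit missed the limit at 1345 bases, so only the former counts as a TSS peak. That summit was nearest to the start of ZC3H10. A second PTBP1 peak of RPL41 held the TSS itself with 20 fragments and a fold enrichment of 12.2, and the RUNX1 TSS peak had 12.8. The next farthest were the RPL7 peaks, at 711 bases for PTBP1 and 724 for RUNX1.

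Where both peaks were called, they nearly coincided, as they did over all genes. The summits were a median of 63 bases apart (quartiles 31 and 110.5), compared with 79 over all 3469 genes with both, and 21 of 26 were within 200 bases (80.8%, interval 60.6 to 93.4), compared with 79.6%. The peaks overlapped at 25 of 26 (96.2%, interval 80.4 to 99.9), RPL41 being the exception, compared with 99.1%. PTBP1 had the higher fold enrichment at 17 of 26 (65.4%, interval 44.3 to 82.8), compared with 62.7% of all such genes. The median ratio of PTBP1 to RUNX1 was 1.21, compared with 1.16. RPL41, whose peaks do not overlap, is among the 17 and enters the ratios and the correlations below. The ratio ran from 0.400 at RPL3 to 3.98 at RPL28. In fragments PTBP1 was the higher at 20 of 26 (76.9%, interval 56.4 to 91.0) with equal counts at 2, compared with 77.5% of all such genes, and the median ratio was 1.54, compared with 1.55. By either measure the share of members lay close to that of all genes.

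The heights of the peaks at a gene were only weakly related. Across the 26 ribosomal protein genes with both, Spearman's rho was 0.28 and Pearson's r of log2 values 0.22, and across all 3469 genes they were 0.56 and 0.60. The points are genes that share the same lists, calling thresholds and promoters, so these are descriptions across genes and carry no p. Both lists leave out values under their threshold, and 26 points fix a correlation poorly.

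**Figure D4:**
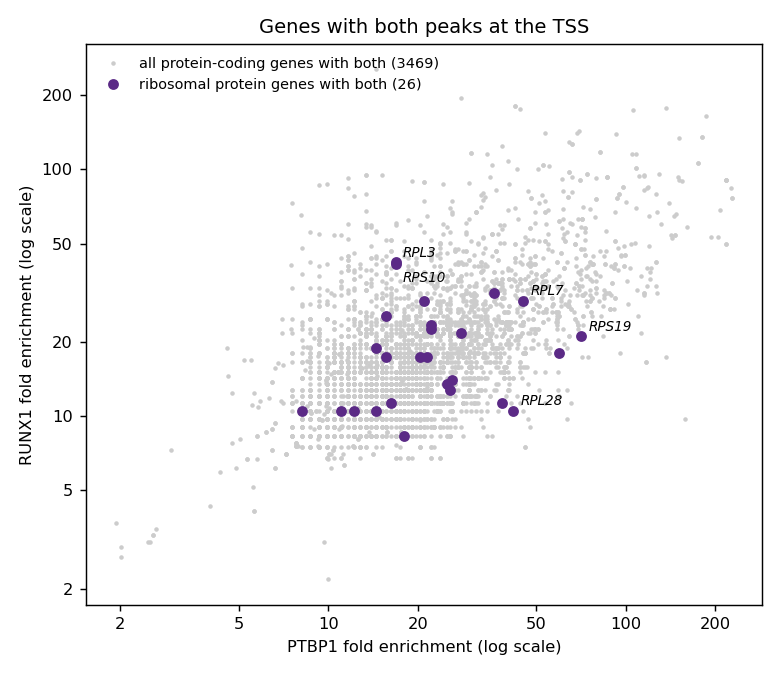
PTBP1 fold enrichment (horizontal) against RUNX1 fold enrichment (vertical), both on log scales, for genes with both peaks at the TSS, all protein-coding genes in grey and the 26 ribosomal protein genes in purple. RPS19 lies to the right with 21.1 for RUNX1, and RPL3 and RPS10 lie high with 16.9 each for PTBP1.

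Where a promoter is shared with another gene, a peak there cannot be assigned to one of the genes. Another coding start lay within 1 kb of 18 members (22.0%, interval 13.6 to 32.5), beside 14.1% of all genes, a share that the interval holds. These neighbours included readthrough genes such as RPS10-NUDT3 and RPL36A-HNRNPH2, which begin at the member's own promoter. Of the 18, 15 held PTBP1 (83.3%, interval 58.6 to 96.4) and 10 held RUNX1 (55.6%, interval 30.8 to 78.5). By class, 9 of them held both peaks, 6 PTBP1 alone, 1 RUNX1 alone and 2 neither. Over all 2816 genes with such a neighbour these counts were 965, 437, 129 and 1285. Of the 64 without such a neighbour, 34 held PTBP1 (53.1%, interval 40.2 to 65.7) and 21 held RUNX1 (32.8%, interval 21.6 to 45.7), beside 22.5% and 18.4% of all genes without one.

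The member's own canonical start was the nearest coding start for 37 of the 49 PTBP1 summits (75.5%, interval 61.1 to 86.7), compared with 79.1% over all genes, and for 23 of the 31 RUNX1 summits (74.2%, interval 55.4 to 88.1), compared with 80.2%. The PTBP1 summits nearer to another gene were those of RPL18, RPL27A, RPL35, RPL41, RPL6, RPL7, RPL7A, RPL9, RPS10, RPS18, RPS25 and RPS27A. For RUNX1 they were those of RPL18, RPL35, RPL36AL, RPL7, RPL9, RPS10, RPS18 and RPS25. The RUNX1 peak of RPL36AL held 83 fragments over a raised background of 13.6, which gave the lowest fold enrichment of the 31, and the summit was nearest to MGAT2. RPL19 and RPL8 were the other members with a raised RUNX1 background, 1.36 at each, and no PTBP1 TSS peak of a member had one.

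For RUNX1 the letters TGTGGT or TGCGGT, on either strand, were sought within 50 bases of each summit, because the RUNX proteins bind this sequence. They were found at 3 of 31 ribosomal protein genes with a RUNX1 peak (9.68%, interval 2.04 to 25.8), beside 12.7% of all genes with one, and at 3 of 49 PTBP1 summits (6.12%, interval 1.28 to 16.9), beside 6.99%. The RUNX1 summits with a match were those of RPS23, RPS26 and RPLP1, and the PTBP1 summits with one included those of RPL27 and RPL37. The windows around the 3 RUNX1 summits follow, on the plus strand, with the match in capitals (in RPS23 it reads on the minus strand).
RPS23 (hg38 chr5:82278360-82278459, upstream of the canonical start): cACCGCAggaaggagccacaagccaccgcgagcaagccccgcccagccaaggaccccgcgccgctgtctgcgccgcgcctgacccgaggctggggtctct
RPS26 (hg38 chr12:56041726-56041825, upstream of the canonical start): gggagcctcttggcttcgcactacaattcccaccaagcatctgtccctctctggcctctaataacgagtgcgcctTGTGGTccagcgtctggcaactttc
RPLP1 (hg38 chr15:69453011-69453110, summit in intron 1): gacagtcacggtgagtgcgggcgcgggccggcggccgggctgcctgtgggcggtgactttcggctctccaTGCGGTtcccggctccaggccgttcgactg
A match is a description of the letters and not of a bound site. The remaining 28 RUNX1 summits of members lacked these letters in this window.

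The promoter window ran from 250 bases before the canonical start to 50 after it, while the peak classes are by the gene TSS. The canonical start lay over 1 kb from the gene TSS at 9 of 82 members (11.0%), beside 16.6% of all genes. In this window the RUNX letters were found at 23 of 82 ribosomal protein genes (28.0%, interval 18.7 to 39.1), beside 18.9% of all genes. They stood at 7 of the 26 genes with both peaks (26.9%), 4 of the 23 with PTBP1 alone (17.4%), 2 of the 5 with RUNX1 alone and 10 of the 28 with neither (35.7%), beside 19.7%, 14.5%, 28.6% and 18.7% of all genes of these classes. The ETS letters CCGGAAG were found at 28 (34.1%, interval 24.0 to 45.4), beside 14.1%, and the YY1 letters GCCATNTT at 14 (17.1%, interval 9.66 to 26.98), beside 8.11%. The E-box CACGTG was found at 5 (6.10%, interval 2.01 to 13.7), beside 8.76%, and the NRF1 core GCGCATGC at 6 (7.32%, interval 2.73 to 15.2), beside 4.27%. The GC box GGGCGG was found at 51 (62.2%, interval 50.8 to 72.7), beside 61.3%. All letters were sought on both strands.

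Within the ribosomal protein genes the YY1 letters stood at 7 of 23 genes with PTBP1 alone (30.4%, interval 13.2 to 52.9), 2 of 26 with both (7.69%, interval 0.946 to 25.1), 5 of 28 with neither (17.9%, interval 6.06 to 36.9) and 0 of 5 with RUNX1 alone (interval to 52.2%). Over all genes of these classes the shares were 13.2%, 11.1%, 6.71% and 8.03%, and the members' intervals overlap each other. The ETS letters stood at 11 of 26 with both (42.3%), 6 of 23 with PTBP1 alone (26.1%), 3 of 5 with RUNX1 alone and 8 of 28 with neither (28.6%), beside 19.6%, 20.4%, 20.1% and 11.6% of all genes of these classes. The GC box stood at 61.5% of members with both, 52.2% with PTBP1 alone, 4 of 5 with RUNX1 alone and 67.9% with neither, beside 81.0%, 76.5%, 74.5% and 53.7% of all genes of these classes. Median GC content of the 300 bases of this window, around the canonical start, was 63.7% for all genes. Among members it was 60.8% with both peaks, 59.3% with PTBP1 alone and 59.7% with neither, whereas over all genes it was 68.0%, 67.0% and 61.3%.

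**Figure D5:**
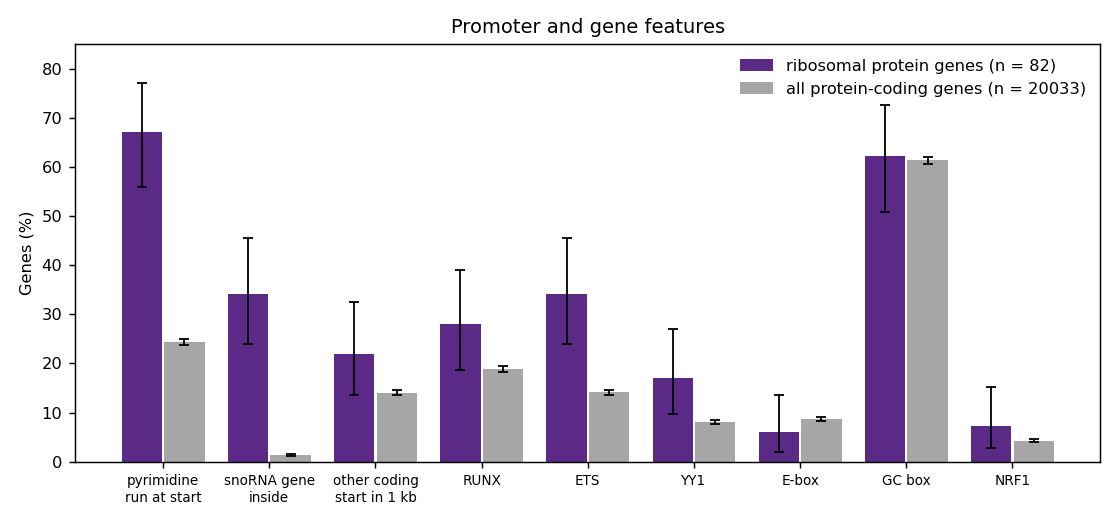
Percent of the 82 ribosomal protein genes (purple) and of all 20033 protein-coding genes (grey) with each feature, with exact 95% binomial intervals. The pyrimidine run (67.1% and 24.3%), snoRNA genes inside (34.1% and 1.37%) and ETS letters (34.1% and 14.1%) differ most, and the GC box (62.2% and 61.3%) hardly differs.

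Many of these genes carry small nucleolar RNAs (snoRNAs), which guide the modification of ribosomal RNA, in their introns. A snoRNA gene lay inside 28 members (34.1%, interval 24.0 to 45.4), beside 1.37% of all genes. Of these host genes, 18 held PTBP1 (64.3%, interval 44.1 to 81.4) and 8 held RUNX1 (28.6%, interval 13.2 to 48.7). Of the 54 other members, 31 held PTBP1 (57.4%, interval 43.2 to 70.8) and 23 held RUNX1 (42.6%, interval 29.2 to 56.8). By class, 7 of the 28 host genes held both peaks, 11 PTBP1 alone, 1 RUNX1 alone and 9 neither. Over all 275 protein-coding genes with a snoRNA gene inside, these counts were 62, 42, 10 and 161. The 11 members with PTBP1 alone included RPL13A and RPL23A with 4 snoRNA genes each, while RPL4 carried 5 and held neither peak at the TSS.

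Away from the TSS, PTBP1 peaks lay in the gene body of 10 members (12.2%, interval 6.01 to 21.3), beside 12.4% of all genes, and RUNX1 peaks in 4 (4.88%, interval 1.34 to 12.02), beside 11.5%. Ribosomal protein genes are short, with a median length of 5440 bases against 27471 for all genes, and the part of length in these shares was not tested. Several of these peaks marked a canonical start far inside the annotated gene. RPL22 had PTBP1 (15.7) and RUNX1 (18.0) summits on the same base, at -61 from its canonical start. RPL10 had a PTBP1 summit (16.3) at -63 from its own. These genes held neither peak at the gene TSS and would be counted by the canonical start instead, as would RPL36 for PTBP1.

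RPL36 held the most body peaks, 4 for PTBP1 and 2 for RUNX1. The highest PTBP1 value, 76.7 with 131 fragments at chr19:5686399-5688148, had its summit at -3381 from the canonical start and exceeded that of every TSS peak of the 82 genes. A RUNX1 peak with a value of 23.3 overlapped it, and RUNX letters lay within 50 bases of both summits. Another PTBP1 peak of 33.1 sat 23 bases downstream of the canonical start, in the 5-prime UTR of exon 1, with no RUNX1 peak there. Farther upstream, a pair of overlapping peaks had 52.3 for PTBP1 and 36.8 for RUNX1, with summits nearest to HSD11B1L and MICOS13, and a PTBP1 peak of 10.5 was also nearest to MICOS13.

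RPS9 held 2 body peaks of each list, all past the end of its canonical transcript. One pair, 7418 bases from the canonical start for PTBP1, had 23.3 for PTBP1 and 62.4 for RUNX1, the highest RUNX1 value at any member and above its own TSS peak of 21.8. The other pair, with 15.1 and 27.1, was nearest to LILRA6. The remaining PTBP1 body peaks were those of RPL18 (14.0 and 7.56, both intronic), RPL27 (11.0, intron 3), RPL37 (8.14, intron 3), RPL3 (7.56, coding exon 6), RPS2 (12.8, coding exon 5) and RPL4 (10.5, past the canonical end). The RUNX1 body peak of RPL41 (23.3) was the one nearest to ZC3H10 described above.

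Other genes of the translation machinery were counted in the same way. Of 56 translation initiation factor genes, 36 held PTBP1 (64.3%, interval 50.4 to 76.6), 23 held RUNX1 (41.1%, interval 28.1 to 55.0) and 22 held both. Of 78 mitochondrial ribosomal protein genes, 31 held PTBP1 (39.7%, interval 28.8 to 51.5), 20 held RUNX1 (25.6%, interval 16.4 to 36.8) and 18 held both. The mitochondrial shares lay below those of the cytosolic ribosomal protein genes (59.8% and 37.8%) and those of the initiation factors above. The difference was not tested, and the intervals of the cytosolic genes overlap those of each list, for PTBP1 and the mitochondrial genes only between 48.3 and 51.5%. Of 6 ribosome genes outside the symbol rule, 4 held PTBP1, among them FAU (26.7), which encodes a ribosomal protein fused to a ubiquitin-like protein, RPL26L1 (14.0) and RPL7L1 (12.8), of which the latter pair held RUNX1 as well. RACK1 and RPL22L1 held neither.

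Of 14 elongation factors and other genes listed for the same pyrimidine tract, 9 held PTBP1 (64.3%, interval 35.1 to 87.2). RUNX1 was held by 6 (42.9%, interval 17.7 to 71.1). Over all genes the shares were 26.4% and 21.3%. The list was fixed beforehand, and the tract of its genes is not reported here. The PTBP1 median of this list was 45.3, against 15.7 for the ribosomal protein genes. The highest were HNRNPA1 (77.3 for PTBP1, 41.4 for RUNX1), a splicing factor, and PABPC1 (61.0 and 91.7), the poly(A)-binding protein. Of 22 ribosome biogenesis genes, 10 held PTBP1 (45.5%, interval 24.4 to 67.8) and 5 held RUNX1 (22.7%, interval 7.82 to 45.4). These intervals hold the shares of all genes. Both lists overlap that of the initiation factors, so the comparisons are not separate.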

How the data were processed

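Paired reads were mapped by the authors to hg38 (Bowtie2) and filtered by mapping quality, duplicates were dropped, and MACS3 called the peaks with a q-value limit of 1e-07. Which control was used and whether replicates were pooled are not given in the sources used here. The deposited columns hold the fold enrichment (a ratio), the −log10 p-value and −log10 q-value at the summit, and a score (the same −log10 q-value times 10, without decimals). The submitters' processing notes also name bedtools 2.30.0.

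Fragment pileup and background were solved from the fold enrichment and −log10 p-value, with a largest difference of 0.00134 from the deposited value. A background was called raised above 1.5 times the usual level. Library depths were not used here. Genes, canonical transcripts, snoRNAs and pseudogenes came from GENCODE version 44, sequences from hg38, and coordinates are 1-based. Some members, and sequences on chromosome 8, are not reported here by name, but all members enter the counts.

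The members and lists were chosen with earlier results of these data known. Every member was placed in a class. Values were given for the 6 highest and 3 lowest members of each list, those with a peak of 1 list only, those with body peaks, the stalk proteins, the L and AL paralogs and the fixed lists, with some other members named by their class, neighbour or feature. Procedures were tested on simulated data. Alternatives covered the TSS window, the start used, the q-value threshold, raised backgrounds, neighbours, paralogs, the motif and the pyrimidine run. Python 3.11.15, numpy 2.4.6, pandas 2.3.3, scipy 1.17.1, pysam 0.24.0 and matplotlib 3.10.9 were used.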

Additional observations from a re-analysis of the deposited data

How the results depend on the processing

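Of 60 recomputed values, 51 stayed within 1.5 times a count or share or within the 95% interval of a median, 9 moved and 0 reversed. The median fragments (26 and 22, in another unit) were held to that interval after division by the medians of all genes. Requiring the TSS base inside the peak left RUNX1 at 18 members (22.0%, beside 15.5% of all genes) and both at 14 (17.1%, beside 11.9%), with intervals that hold the share of all genes, while PTBP1 stayed at 36 (43.9%, beside 19.9%). With a −log10 q-value of at least 20, PTBP1 was left at 30 members (36.6%, beside 17.8%) and both at 17 (20.7%, beside 10.5%). With the canonical start in place of the gene TSS, the median PTBP1 summit moved to -156. RUNX letters were found at 5 PTBP1 and 6 RUNX1 summits within 100 bases, and at 1 of each with TGTGGT alone. 2 alternatives were chosen after seeing the data. Counting only summits nearest to the member's own start gave 38 of 82 with PTBP1 (46.3%, interval 35.3 to 57.7) and 23 with RUNX1 (28.0%, interval 18.7 to 39.1). Leaving out the members on chromosome 19 gave 39 of 70 (55.7%, interval 43.3 to 67.6) and 24 of 70 (34.3%, interval 23.3 to 46.6). The share of all genes was not computed under these alternatives, so the counts cannot be set against it. The cause of the moves was not tested. No paired analysis was possible because each target has 1 peak list without replicate columns. The weakest called sites had 11 (PTBP1) and 8 (RUNX1) fragments, so members without a peak may hold weaker signal.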

Other observations

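Ribosomal protein genes have left many processed pseudogenes, intronless copies of their mRNA that lack the promoter of the parent gene. Of 1524 such copies in the annotation, 2 overlapped a PTBP1 peak (0.131%, exact 95% interval 0.0159 to 0.473) and 2 a RUNX1 peak (0.131%), beside 17 and 19 of all 10146 processed pseudogenes (0.168% and 0.187%). They were RPL21P20 (fold enrichment 8.72) and RPS15AP1 (12.2) for PTBP1, and RPS7P1 (10.5) and RPL36AP7 (30.8) for RUNX1. The summit lay inside the copy at RPS15AP1 and RPL36AP7. A mapping quality filter removes reads that match parent and copy alike, and its part in these counts was not tested. Among the 449 exons of the canonical transcripts of members, 4 held a PTBP1 summit (0.891%, interval 0.243 to 2.27) and 0 a RUNX1 summit (interval to 0.818%). The summits of RPL24 and RPL36 lay in exon 1, 39 and 23 bases downstream of the canonical start. Those of RPL3 and RPS2 lay in coding exons farther in. The share over the exons of all protein-coding genes was not computed, so these counts cannot be called high or low.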
